A study of Homo sapiens with 2 samples.

Results

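Peaks called for RUNX2, a runt-domain transcription factor, and for MTA1, which belongs to the nucleosome remodelling and deacetylase (NuRD) complex, were examined at 9 genes that mark luminal breast epithelium: ESR1, PGR, TFF1, GATA3, FOXA1, TFAP2A, SPDEF, ELF3 and XBP1. The genes were chosen by their role and not by a measured value, although earlier results of these data were known at the time. They are 9 of the 20037 protein-coding genes of the annotation. For each gene, every peak inside it or within 50 kb of either side was taken. The peaks came from MDA-MB-231, a human triple-negative breast cancer cell line, a class named for the lack of estrogen receptor, progesterone receptor and HER2. Untreated cells were profiled by CUT&Tag with 1 antibody per library. There was 1 RUNX2 library and 1 MTA1 library, so the values have no replicate, and a control library was not analysed here. Peak lists hold no expression, so the identity of the line was not checked here against its markers.

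The luminal lineage is kept by a small circuit of transcription factors. ESR1 encodes estrogen receptor alpha, which acts together with the pioneer factor FOXA1 and with GATA3 at shared enhancers, and PGR and TFF1 are classical targets of the receptor. RUNX proteins bind DNA through their runt domain at a short core element, and NuRD combines nucleosome remodelling with histone deacetylation. The comparison describes where peaks of both proteins lie at these genes in a line of the class that lacks the receptors.

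The RUNX2 list held 61700 peaks on chromosomes 1 to 22, X and Y, and the MTA1 list held 42683. The score of a peak is the authors' own and was used only as a rank within its list. The number of reads behind each peak is unknown. A peak that is missing from a list can therefore be a weak signal as well as an empty site. At the 9 genes lay 52 RUNX2 and 36 MTA1 peaks. The intervals given below are exact 95% binomial intervals and cover counting error only. Peaks of a list overlapped a peak of the other list when they shared at least 1 bp.

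The stretches just upstream of annotated starts came first, since a promoter is where a peak is most readily tied to its gene. RefSeq promoter windows, each running from 250 bases before to 50 bases after an annotated start, were found for 8 of the 9 genes and not for TFF1. Of 22 such windows, 1 was touched by a RUNX2 peak and 2 by an MTA1 peak. The same share over all promoter windows was not computed, so these counts cannot be called low or high. Both libraries met at the first start of XBP1, and an MTA1 peak without a RUNX2 peak lay at an internal start of TFAP2A. Those 2 upstream stretches are printed in GRCh38.p14 on the minus strand, 5′ to 3′. Capitals mark the 131 bases that lay in both peaks at XBP1, chr22:28800570-28800819, and the 33 bases that lay in the MTA1 peak at TFAP2A, chr6:10412392-10412641.
XBP1: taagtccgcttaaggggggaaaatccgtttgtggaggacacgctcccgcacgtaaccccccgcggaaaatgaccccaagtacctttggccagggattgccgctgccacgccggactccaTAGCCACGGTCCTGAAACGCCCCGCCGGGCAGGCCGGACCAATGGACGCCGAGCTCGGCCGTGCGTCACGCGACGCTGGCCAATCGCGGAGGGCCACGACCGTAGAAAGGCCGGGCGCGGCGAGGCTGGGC
TFAP2A: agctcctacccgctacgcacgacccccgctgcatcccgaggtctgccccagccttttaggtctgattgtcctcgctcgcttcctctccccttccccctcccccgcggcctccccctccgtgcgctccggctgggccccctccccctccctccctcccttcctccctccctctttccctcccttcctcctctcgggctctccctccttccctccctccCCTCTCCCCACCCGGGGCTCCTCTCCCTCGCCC

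The promoters with a peak did not hold the letters of the RUNX core element, but so few windows give no contrast. A pair of promoters without a peak is printed as an example of these letters. These are SPDEF, minus strand, chr6:34556330-34556579, and the first start of GATA3, plus strand, chr10:8045083-8045332. Capitals mark the core letters.
SPDEF: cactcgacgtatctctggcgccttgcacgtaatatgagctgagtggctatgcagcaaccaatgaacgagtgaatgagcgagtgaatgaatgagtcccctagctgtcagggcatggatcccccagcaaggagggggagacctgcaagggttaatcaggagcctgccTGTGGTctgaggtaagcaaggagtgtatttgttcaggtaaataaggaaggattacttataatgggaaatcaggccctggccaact
GATA3: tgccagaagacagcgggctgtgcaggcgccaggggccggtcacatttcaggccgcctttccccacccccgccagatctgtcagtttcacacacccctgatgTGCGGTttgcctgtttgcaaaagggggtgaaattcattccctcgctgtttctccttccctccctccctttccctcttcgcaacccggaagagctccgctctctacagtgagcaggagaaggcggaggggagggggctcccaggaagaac

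The core was searched as TGTGGT or TGCGGT on both strands. It was present in 5 of the 22 windows, at ESR1, GATA3 and SPDEF, and in 19.6% of all 35116 windows of the table. None of these 5 windows held a peak of either library, where 2 of all 22 held any. How often windows with the core hold a peak over all genes was not computed. With only 2 windows that held a peak, 0 among the 5 can be called neither low nor high. The GC box GGGCGG was in 12 of the 22 windows and in 45.0% of all. The AP-1 letters TGANTCA were in 1, at GATA3, and in 7.71% of all. The letters TGTTTAC for FOX factors and AGATAA for GATA factors were in 0 of the 22, against 3.42% and 10.3% of all windows. No matches of different motifs overlapped. Windows of 1 gene can overlap, and a match of letters describes the window alone.

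With their surroundings included, these genes were not set apart by the presence of a peak. A RUNX2 peak lay in or within 50 kb of 9 of 9 genes, against 90.8% of all protein-coding genes. An MTA1 peak lay there in 8 of 9, the exception being TFF1, against 86.6%. Overlapping peaks of both libraries were found at 8 of 9, against 80.1%. These shares are close to the background.

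At the starts the counts were lower than the background, within their error. A RUNX2 peak lay within 1 kb of an annotated start in 2 of 8 genes (25%, interval 3.19% to 65.1%), against 52.1% of the protein-coding genes with an annotated start. The 2 genes were XBP1 and TFAP2A. For MTA1 it was 3 of 8 (37.5%, 8.52% to 75.5%), FOXA1 being added, against 53.9%. Overlapping peaks were present at the starts of XBP1 and TFAP2A only, or 25% (3.19% to 65.1%), against 45%. All 3 backgrounds lay inside the intervals, so a difference was not detectable with 8 genes. By the wider measure of 3 kb around either end of a gene, RUNX2 was present at 4 of 9, MTA1 at 3 of 9 and an overlapping pair at 2 of 9, against 59.9%, 59.1% and 48.4%.

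**Figure D1:**
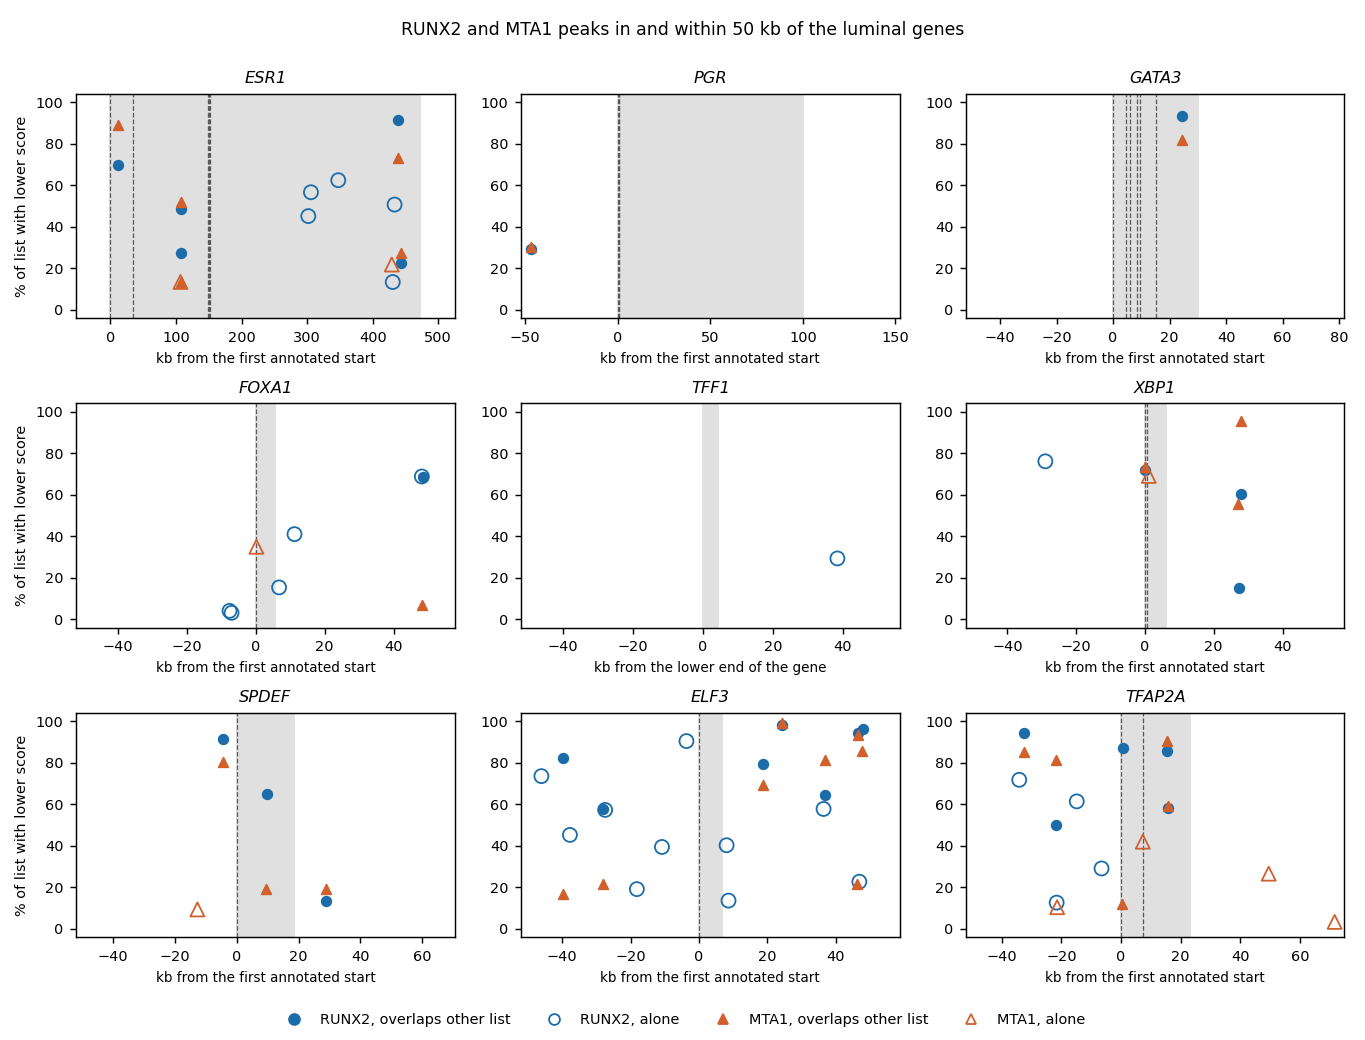
Each panel is 1 gene, with the distance of a peak centre from the first annotated start in kb on the horizontal axis (positive in the direction of transcription; for TFF1, from the lower end of the gene) and the percentage of the same list with a lower score on the vertical axis. Grey marks the gene, dashed lines the annotated starts, circles RUNX2 and triangles MTA1 peaks, filled where they overlap the other list; peaks crowd around ELF3 and TFAP2A, while PGR, TFF1 and ELF3 have none inside.

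The receptor genes and their target carried few peaks for the length of their windows. ESR1 (gene ID 2099, chromosome 6) spans 473 kb and held 10 RUNX2 and 7 MTA1 peaks, all inside the gene. None lay within 1 kb of any of its 6 annotated starts. Per 100 kb of window this was 1.75 RUNX2 and 1.22 MTA1 peaks, and 26.7% and 29.0% of protein-coding genes had fewer. By count alone ESR1 was not low. The median protein-coding gene had 5 RUNX2 and 4 MTA1 peaks, and the upper quartiles were 8 and 7. The strongest RUNX2 peak, at 152095275 to 152095492, scored 25.7, above 91.6% of its list. It overlapped an MTA1 peak at 152095236 to 152095487 with a score of 12.4 that exceeded 73.2% of the MTA1 list. This pair lay 286 kb past the last start, toward the 3′ end of the gene. The strongest MTA1 peak lay at the opposite end, at 151668956 to 151669137, 12.4 kb past the first start. Its score of 21.2 exceeded 89.1% of the MTA1 list, and the RUNX2 peak overlapping it, at 151668940 to 151669125, had a score of 10.4, above 69.9%. Thus the highest ranks of the libraries in this gene fell on different sites, although each site had a peak of both.

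The remaining 3 overlapping pairs of ESR1 ranked lower. A RUNX2 peak at 151764019 to 151764220 (score 6.56) and its MTA1 partner (score 7.82) stood near the middle of their lists, above 48.6% and 52.2% of peaks. The neighbouring pair had scores of 5.11 and 4.70 and stood above 27.2% and 13.5%. The last, at 152100275 to 152100506, had scores of 4.8 and 5.66 and stood above 22.7% and 27.2%. RUNX2 peaks without an MTA1 partner numbered 5 and reached a score of 8.60 at 152004125 to 152004324. MTA1 peaks without a RUNX2 partner numbered 2, with scores of 4.70 and 5.33.

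PGR (gene ID 5241, chromosome 11), which encodes the progesterone receptor, had no peak inside its 100.19 kb or at its 3 starts. A single overlapping pair lay 46.8 kb upstream. The RUNX2 peak, at 101176570 to 101176668, had a score of 5.22, and the MTA1 peak, at 101176569 to 101176684, a score of 5.85. Both had the narrowest width of their list, 99 and 116 bp, and both scores were the most frequent of their list, shared by 6168 RUNX2 and 1851 MTA1 peaks. TFF1 (gene ID 7031, chromosome 21) encodes a secreted trefoil peptide. It had 0 MTA1 peaks and 1 RUNX2 peak, at 42400712 to 42400810, which had the same score of 5.22 and the same narrowest width, lay 34.2 kb from the gene and was nearest to UBASH3A. Fewer RUNX2 peaks per 100 kb than at PGR and TFF1 were found at 10.7% and 17.6% of protein-coding genes.

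Among the lineage factors, GATA3 held a single strong site. GATA3 (gene ID 2625, chromosome 10) had 1 RUNX2 and 1 MTA1 peak in its window of 130 kb, and they overlapped by 224 bp. The RUNX2 peak, at 8069620 to 8069903, scored 29.2, above 93.6% of its list. The MTA1 peak, at 8069669 to 8069892, had a score of 16.1, above 81.9%. The site lay inside the gene, 9.30 kb past the last of 6 annotated starts. The 6 starts had no peak within 1 kb. The number of peaks at GATA3 was low, with 13.4% of protein-coding genes having fewer RUNX2 peaks per 100 kb, while the rank of its single site was high.

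FOXA1 (gene ID 3169, chromosome 14) had 6 RUNX2 and 2 MTA1 peaks, of which 1 in each library overlapped the other. An MTA1 peak lay inside the gene, at 37594946 to 37595078, with its centre 0.237 kb past the start, and scored 5.89, above 34.9% of its list. No RUNX2 peak lay inside the gene. RUNX2 peaks stood 5.51 kb and 1.05 kb past its 3′ end, with scores of 5.54 and 4.42, and 6.92 kb and 7.51 kb upstream, inside the neighbouring gene TTC6, with scores of 3.30 and 3.39. The last pair of scores stood above 3.10% and 4.0% of RUNX2 peaks. The other 2 RUNX2 peaks of the window, each with a score of 10.1, above 68.8% of the list, lay inside MIPOL1, 42.7 kb and 42.4 kb away. One of them touched an MTA1 peak by 4 bp. With 6 RUNX2 peaks in a short window, 72.2% of protein-coding genes had fewer per 100 kb, and for MTA1, with 2 peaks, 39.9%.

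TFAP2A (gene ID 7020, chromosome 6), which encodes the transcription factor AP-2 alpha, had 9 peaks in each library and 5 overlapping pairs. Of protein-coding genes, 83.9% had fewer RUNX2 and 90.1% fewer MTA1 peaks per 100 kb. At the first start a RUNX2 peak at 10418927 to 10419285, centred 0.553 kb past it, scored 19.96, above 87.1% of its list. The MTA1 peak overlapping it, at 10419177 to 10419292, had a score of 4.58, above 11.8%. At the internal start, which also lies within the antisense transcript TFAP2A-AS1, only MTA1 had a peak. This MTA1 peak, at 10412309 to 10412424, had a score of 6.73, above 41.9% of its list, and no RUNX2 peak overlapped it. It had the narrowest width of its list, 116 bp, and part of its bases are in capitals in the printed sequence. The MTA1 peak of highest score in the window lay inside the gene, at a site shared with the antisense transcript TFAP2A-AS2. This site had a RUNX2 peak at 10404118 to 10404639 with a score of 18.5 and an MTA1 peak at 10404117 to 10404632 with a score of 22.7. They stood above 85.5% and 90.5% of their lists and overlapped by 515 bp, the longest overlap at the 9 genes. Upstream, within the long noncoding MIR5689HG, the RUNX2 peak of highest score in the window, at 10451903 to 10452346 (score 31.1, above 94.4%), overlapped an MTA1 peak at 10451931 to 10452239 (score 18.1, above 85.2%), 32.2 kb from the gene. MTA1 peaks past the 3′ end were weak, with scores of 3.61 and 5.54, and had no RUNX2 partner.

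The ETS factors of epithelial differentiation differed in number. SPDEF (gene ID 25803, chromosome 6) had 3 RUNX2 peaks, all of which overlapped an MTA1 peak, and 4 MTA1 peaks. The strongest pair lay 4.36 kb upstream of the gene. Its RUNX2 peak at 34560700 to 34561025 had a score of 25.2, above 91.3% of the list, and its MTA1 peak at 34560689 to 34561002 a score of 15.3, above 80.4%. A pair inside the gene had scores of 9.01 for RUNX2 and 5.12 for MTA1. Another pair lay inside the neighbouring PACSIN1 and had scores of 4.21 and 5.12. The MTA1 peak without a partner, 12.7 kb upstream, had a score of 4.36. The SPDEF start itself, whose upstream stretch holds the core letters printed above, had no peak within 1 kb.

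ELF3 (gene ID 1999, chromosome 1), in contrast, had the most RUNX2 peaks of the 9 genes, 17, and 8 MTA1 peaks. None of them lay inside the gene of 6.60 kb or within 1 kb of its start. With 15.9 RUNX2 peaks per 100 kb it ranked 31 of 20037 protein-coding genes, and 99.8% had fewer. Neighbouring peaks were counted separately here, and the rank was not recomputed with them merged. For MTA1, with 7.5 per 100 kb, 90.7% had fewer. The 8 MTA1 peaks all overlapped a RUNX2 peak, and 10 of the 17 RUNX2 peaks had no MTA1 partner. The peaks on the upstream side were nearest to TIMM17A or RNPEP, and 9 RUNX2 and 6 MTA1 peaks were nearest to ELF3 itself, all of them downstream.

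The strong sites of ELF3 were gathered downstream. Starting more than 10 kb past its 3′ end, 7 RUNX2 and 6 MTA1 peaks occupied 29.5 kb in which no protein-coding gene was closer. The strongest lay 17.4 kb past the gene, with a RUNX2 peak at 202034608 to 202035138 (score 45.5, rank 1240 of its list) and an MTA1 peak at 202034766 to 202035140 (score 49.1, rank 322). These are the highest scores of both libraries at the 9 genes, above 98% and 99.2% of their lists. A further RUNX2 peak, at 202056689 to 202057306 with a score of 30.4, overlapped 2 MTA1 peaks with scores of 5.27 and 26.1. Another, at 202058179 to 202058748, had a score of 36, above 96.1%, and its MTA1 partner a score of 18.3, above 85.4%. On the upstream side the RUNX2 peak at 202006741 to 202007044, inside the antisense transcript ELF3-AS1 and 3.54 kb from the gene, had a score of 23.8, above 90.4%, and no MTA1 partner. It was the only one of the 8 RUNX2 peaks in the top 10% at these genes that stood alone.

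XBP1 (gene ID 7494, chromosome 22) encodes a factor of the unfolded protein response that also takes part in estrogen receptor signalling. It had 4 peaks in each library and 3 overlapping pairs. At its first start the RUNX2 peak at 28800511 to 28800700 had a score of 10.9 and the MTA1 peak at 28800510 to 28800811 a score of 12.4. They stood at nearly the same rank, above 71.8% and 73.5% of their lists. This was the only site at the 9 genes where peaks of both libraries reached into a promoter window. An MTA1 peak at 28799360 to 28799559, 0.618 kb past the second start, had a score of 11.1 and no RUNX2 partner. The highest MTA1 score of the window, 31.1 at 28772554 to 28772830, belonged to a pair inside the neighbouring CCDC117, 21.7 kb away. Its RUNX2 partner had a score of 8.20. A RUNX2 peak 28.9 kb upstream of XBP1, at 28829467 to 28829601 with a score of 12.6, stood alone.

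**Figure D2:**
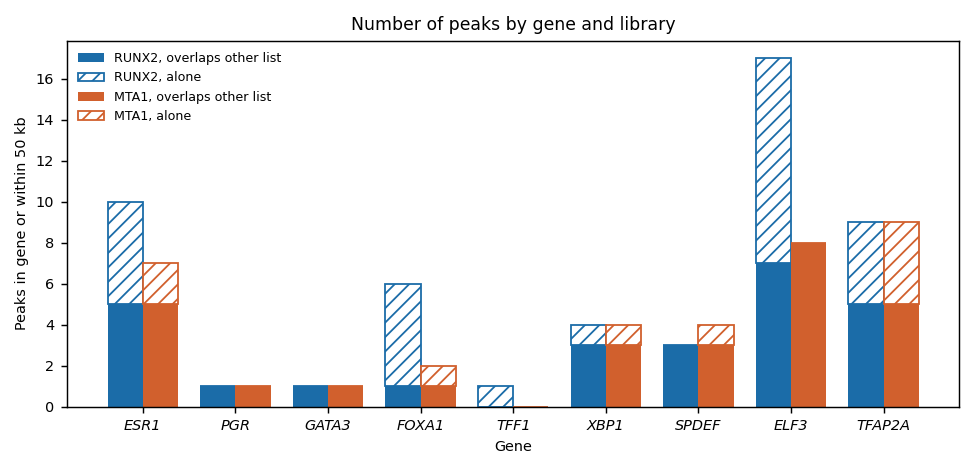
Bars give the number of RUNX2 and MTA1 peaks in each gene or within 50 kb of it, from 0, with the solid part overlapping a peak of the other library and the hatched part alone; there is 1 library per antibody and no error bar. The RUNX2 count ran from 1 at PGR, GATA3 and TFF1 to 17 at ELF3, and the MTA1 count from 0 at TFF1 to 9 at TFAP2A.

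By the number of peaks for their window, the 9 genes thus spread over nearly the whole range of protein-coding genes. Below the median gene, which had 3.55 RUNX2 and 2.58 MTA1 peaks per 100 kb, were 5 of 9 for RUNX2 and 5 of 9 for MTA1. ESR1, PGR, GATA3 and TFF1 were below it in both libraries. ELF3, TFAP2A and XBP1 were above it in both, FOXA1 was above it for RUNX2 alone, and SPDEF for MTA1 alone. With 1 library each, no spread is known against which neighbours in this order could be told apart.

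**Figure D3:**
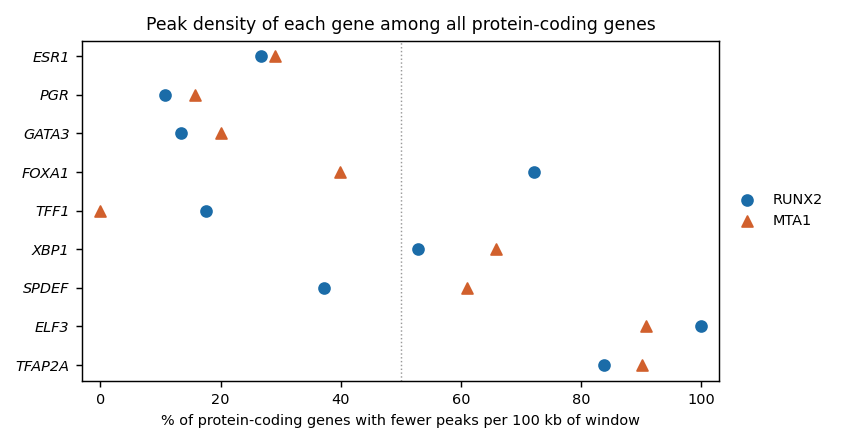
For each gene the horizontal axis gives the percentage of protein-coding genes with fewer peaks per 100 kb of window, circles for RUNX2 and triangles for MTA1, and the dotted line marks 50%. ESR1, PGR, GATA3 and TFF1 lie left of the line in both libraries, while ELF3 and TFAP2A lie at 83.9% or above.

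Of the 52 RUNX2 peaks at these genes, 26 overlapped an MTA1 peak (50%, interval 35.8% to 64.2%), against 45.4% of the whole list. Among the 36 MTA1 peaks, 27 had a RUNX2 partner (75%, 57.8% to 87.9%), against 65.5%. Neither share left the range that counting error allows around the whole list. The overlap followed the score here too. In the top 10% of the RUNX2 list 7 of 8 peaks at these genes had an MTA1 partner (90.6% over the list), and below the median score 7 of 22 had one (20.4%). For MTA1 it was 4 of 4 in the top 10% (99.1%) and 10 of 18 below the median (42.5%). Between these classes it was 12 of 22 for RUNX2 (65.3%) and 13 of 14 for MTA1 (85.7%). Overlapping peaks at these genes were also wider, with medians of 210 against 122.5 bp for RUNX2 and 212 against 116 bp for MTA1. Score and width were not separated. Peaks of the narrowest width made up 9 of 52 RUNX2 peaks (17.3%, 8.23% to 30.3%), against 31.7% of the list. For MTA1 it was 13 of 36 (36.1%, 20.8% to 53.8%), against 26.0%. The share of the list lay outside the interval for RUNX2 and inside it for MTA1. Peaks of 1 gene are not independent, and 17 of the 52 RUNX2 peaks were at ELF3, so the intervals can be too narrow.

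The 26 and 27 overlapping peaks formed 27 pairs at 8 genes. Their centres were a median of 31.5 bp apart. The RUNX2 peak had the higher rank in 14 pairs and the MTA1 peak in 13. Spearman's rho between the ranks was 0.45 over these 27 pairs, a description only, since the pairs come from the same 2 libraries and several share a gene. Both peaks were at or above the median score of their list in 14 pairs and in the top 10% in 2, both downstream of ELF3. The widest gap in rank was at the first start of TFAP2A, and the others of like size were at ELF3 and FOXA1.

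**Figure D4:**
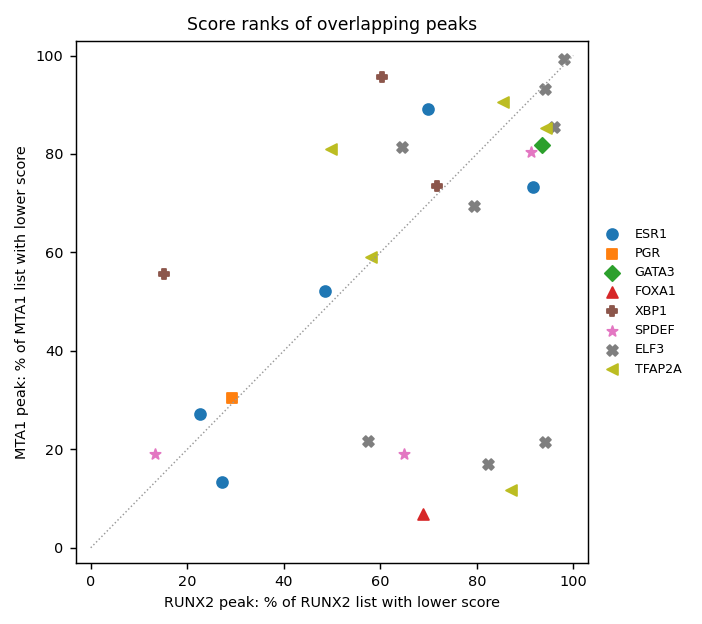
Each point is 1 of the 27 overlapping pairs, placed by the percentage of the RUNX2 list with a lower score (horizontal) and of the MTA1 list (vertical), with a colour and symbol for each gene; the dotted line marks equal rank. The 2 pairs above 90% on both axes belong to ELF3, and 6 pairs with a RUNX2 rank of 57.5% or more have an MTA1 rank of 21.6% or less.

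Peak centres lay over 10 kb from any start of the gene in 37 of 51 RUNX2 peaks (72.5%, 58.3% to 84.1%) and in 26 of 36 MTA1 peaks (72.2%, 54.8% to 85.8%), leaving out TFF1. Since the window reaches 50 kb to either side, most of it lies that far from a start, and the same share was not computed for other genes. The gene in question was the nearest protein-coding gene for 36 of 52 RUNX2 and 30 of 36 MTA1 peaks. This share, too, was not computed for other genes. The remaining peaks were nearest to TIMM17A, RNPEP, CCDC117, MIPOL1, TTC6, PACSIN1 or UBASH3A. Which gene a distant peak acts on was not measured.

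Other genes of the lineage were counted in the same way. Of 20 further luminal genes, 18 had a RUNX2 peak and 19 an MTA1 peak in the gene or within 50 kb, against the 90.8% and 86.6% of all protein-coding genes. An overlapping pair was within 3 kb of a gene end in 7 (35.0%, 15.4% to 59.2%), against 48.4%. The counts ran from 18 RUNX2 and 17 MTA1 peaks at KDM4B, a histone demethylase, and 13 of each at ERBB3, a receptor tyrosine kinase, to 0 RUNX2 and 1 MTA1 peak at TBX3, a T-box factor. Of 20 basal and mesenchymal genes, 19 and 18 had peaks in the same window, and 11 had an overlapping pair at an end (55.0%, 31.5% to 76.9%), against the same 48.4%. EGFR, the epidermal growth factor receptor, had 20 RUNX2 and 21 MTA1 peaks, and FOSL1, an AP-1 subunit, 18 and 14. KRT5, a basal keratin, had 1 and 0, and TWIST1 had 0 of either. Within 1 kb of an annotated start, overlapping peaks were present in 4 of 10 of the further luminal genes (40.0%, 12.2% to 73.8%) and in 8 of 12 of the basal and mesenchymal genes (66.7%, 34.9% to 90.1%), against 45% of all with an annotated start. Each of these backgrounds lies inside the interval of its share. The median number of RUNX2 peaks per 100 kb was 2.53 over the 9 genes, 4.17 over the further luminal genes, 5.77 over the basal and mesenchymal genes and 3.55 over all protein-coding genes. For MTA1 these medians were 1.89, 2.77, 3.30 and 2.58. The medians have no interval, while the intervals of the shares overlap between the lists. The lists were small, and no difference between them was tested.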

How the data were processed

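CUT&Tag libraries of untreated MDA-MB-231 cells were analysed, 1 per antibody. Suppliers of both antibodies differ between the labels and the study's methods, and the labels also describe adaptor ligation to precipitated DNA, so the product and the library preparation are uncertain. The authors called peaks in each library and deposited 1 list per library with a score for each peak, whose scale was not stated. The submitters' processing notes name CASAVA 1.4, Bowtie 0.12.8, MACS and MACS2 and the build hg19, without roles, settings or a control.

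The positions go beyond hg19. Past the ends of 5 hg19 chromosomes (5, 11, 17, 18 and 20) lay 289 RUNX2 and 244 MTA1 peaks. Against GRCh38.p14, a start of a protein-coding gene lay within 1 kb of 15.4% of the RUNX2 and 21.9% of the MTA1 peaks, and of 2.29% and 2.48% after a move of 100 kb. Positions are therefore read as GRCh38 and printed 1-based. Gene spans, names, strands and promoter sequences came from RefSeq, which gave no exons here and a start for 15843 of 20037 protein-coding genes.

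The 9 genes and both companion lists were chosen with earlier results of these data known. For each gene all peaks were counted, the strongest of each list and the peaks at starts and ends were printed, and companion genes were named by their highest and lowest peak counts, at most 4 a list. Percentages of protein-coding genes with the same measure stand beside the counts of genes. No p-value was computed, since there is 1 library per antibody. Mitochondrial peaks were left out. Overlap and window counts were tested on simulated data. The software was Python 3.11.15 with scipy 1.17.1, numpy 2.4.6, matplotlib 3.10.9 and pandas 2.3.3. Alternatives changed the window, the rule for overlap, the score, the width, the merging, the assignment to genes and the distance from a gene end.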

Additional observations from a re-analysis of the deposited data

How the results depend on the processing

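Of 39 values under 10 alternatives, 24 stayed within 1.5 times the count or within the interval of the share given above, and 15 did not. With 10 kb on either side there were 25 RUNX2 and 17 MTA1 peaks, and with 100 kb there were 81 RUNX2 peaks, as a narrower or wider window must give. Peaks at or above the median score left 30 RUNX2 and 18 MTA1 peaks, and an overlapping pair at a gene end in 1 gene. The 10000 highest-scoring peaks left 10 and 11 peaks, of which 70.0% of RUNX2 peaks overlapped, and a pair at a gene end in 0 genes. Without peaks of the narrowest width 23 MTA1 peaks and a pair at a gene end in 1 gene were left. These stricter settings lower the counts by construction. When overlap had to cover at least 50% of each peak, it held for 34.6% of the RUNX2 and 50% of the MTA1 peaks, and a pair at a gene end in 1 gene, XBP1. No paired analysis was possible because each antibody has 1 library. The depth is unknown, so how well a peak of low score, such as those at PGR and TFF1, is supported by reads cannot be told.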
